A study of Mus musculus with 90 samples.

Results

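Trim28 binding was compared across the whole genome between wild-type and methylation-deficient mouse embryonic stem cells (ESCs). The members were all regions in the 4 single-replicate Trim28 peak lists of these cells, 2 lists from WT and 2 from TKOL. Peaks that shared at least 1 base were merged across the 4 lists, which gave 63455 loci. Of these, 908 were in both WT lists and neither TKOL list (1.43% of loci), 1651 were in both TKOL lists and neither WT list (2.60%), and 3545 were in all 4 lists (5.59%). These are called WT-only, TKOL-only and shared loci here. The remaining loci were in other combinations, and 47164 of them (74.3% of all loci) were in 1 list only. The 4 lists were 4 of the 90 samples of the series.

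Trim28, also called KAP1, is a corepressor that does not read DNA by itself. It is brought to DNA by zinc finger proteins of the KRAB family and recruits the histone methyltransferase Setdb1, which deposits H3K9me3, a mark of silent chromatin. In ESCs it is best known for holding down endogenous retroviruses such as the intracisternal A particles (IAPs), and for protecting methylated imprinting control regions together with the zinc finger protein Zfp57.

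WT cells were unmodified ESCs of strain V65. TKOL cells were of strain J1, lacked Dnmt3a and Dnmt3b, the de novo DNA methyltransferases, and carried a short hairpin RNA against Dnmt1, the maintenance methyltransferase. The study describes TKOL as a clonal line whose hairpin can be excised by Cre. DKO0 cells, used here only for comparison, were derived from TKOL by that excision, so they were also J1 and lacked Dnmt3a and Dnmt3b. All were grown with serum and LIF on mouse embryonic fibroblast feeders. Strain changed together with genotype, so the effects of strain and of the methyltransferases cannot be told apart in any WT to TKOL comparison below. The identity of the cells could not be checked from binding data alone. No locus of the 3 classes lay within 2000 bp of the start of a pluripotency gene such as Pou5f1, Sox2 or Nanog.

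The WT lists held 25716 and 17501 peaks and the TKOL lists 31911 and 16960. The list values of the lines overlapped (21608.5 ± 5808.9 and 24435.5 ± 10572 peaks, mean ± SD, n = 2 lists each, exact two-sided permutation test p = 1). TKOL replicate 1 stood apart: it had the most peaks, it covered 8.72 Mb where the other 3 lists covered 3.65 to 6.21 Mb, and its peak names carried another library prefix (DH) than the other Trim28 lists (AM). What the prefix stands for was not given in the sources used here. Peak lists carry no read counts, so the depth behind each peak is unknown. With 2 lists a line, the smallest p an exact permutation test can give is 0.333, so no test here could pass 0.05. The labels do not say that replicates were separate cultures, so a p-value measures only the spread between these lists.

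Pairs of lists from the same line did not stand apart from pairs of different lines. The WT lists had 6183 loci in common, 17.0% of the loci in either, and the TKOL lists 7649, or 18.8%. Across lines the 4 pairs of lists shared 13.4% to 21.8%, with WT replicate 1 in the pairs above both same-line values (21.4% and 21.8%) and WT replicate 2 in the others (13.4% and 17.9%). Loci in exactly 1 WT and 1 TKOL list numbered 6004, of which 3480 were in the replicate 1 list of each line. This combination alone was larger than either line-specific class. Membership in a line-specific class is therefore a description of which lists held a peak.

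**Figure D1:**
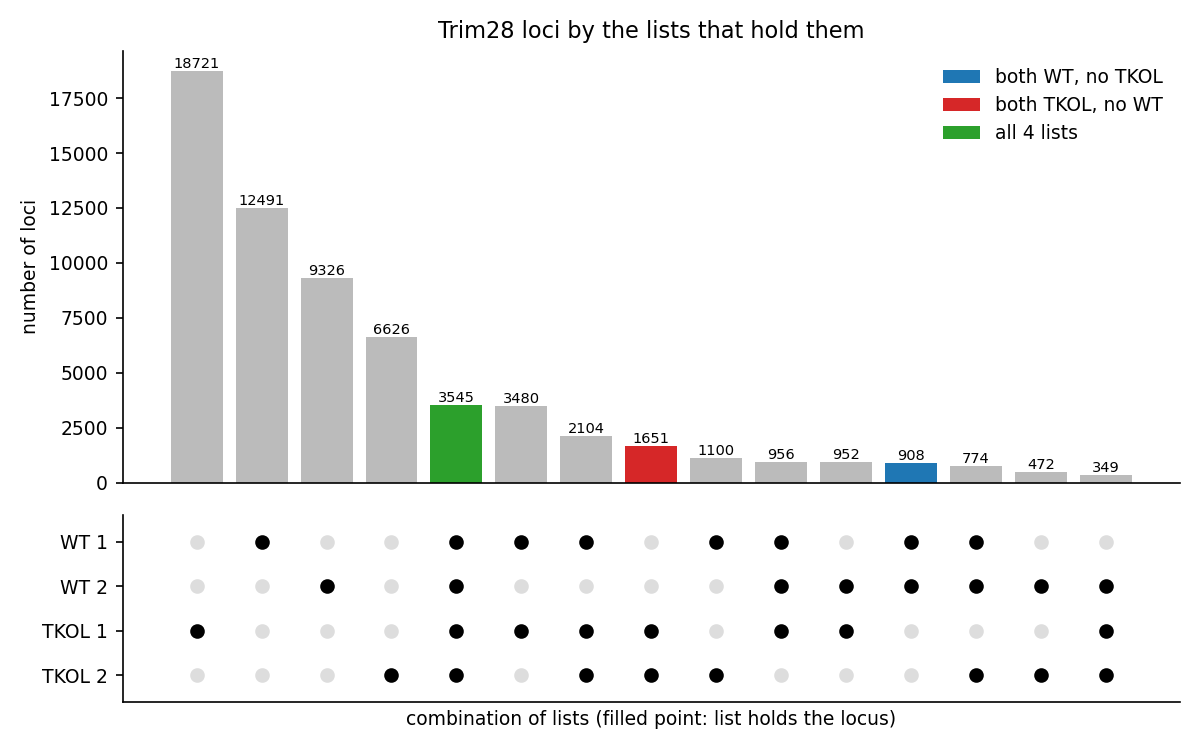
Number of loci (y axis) for each combination of the 4 Trim28 lists (x axis, filled points mark the lists that hold a locus), with the 3 classes coloured. Loci of TKOL replicate 1 alone (18721) and WT replicate 1 alone (12491) were the most numerous, and the 908 WT-only and 1651 TKOL-only loci were fewer than the 3545 shared ones.

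Sequences are shown first, because much of what the lists held was repeated sequence. For each class, the 31-base words of its loci were counted and the word held by the most loci was taken. The leading word was then taken again among the loci left without it. These words were chosen from the classes themselves and describe them, with no test. Capitals mark CpG, the dinucleotide that the methyltransferases act on.
WT-only, word 1: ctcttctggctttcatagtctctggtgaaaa
WT-only, word 2: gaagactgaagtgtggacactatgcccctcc
TKOL-only, word 1: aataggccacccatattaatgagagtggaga
TKOL-only, word 2: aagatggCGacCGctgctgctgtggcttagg
TKOL-only, word 3: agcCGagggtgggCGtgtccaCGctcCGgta
Shared, word 1: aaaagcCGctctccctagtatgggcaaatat
Shared, word 2: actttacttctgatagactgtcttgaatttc
Shared, word 3: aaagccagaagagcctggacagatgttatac

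The 2 leading words of WT-only loci held no CpG and occurred 11052 and 14164 times in the mm9 genome, both strands counted. They were in 13.3% and 9.36% of WT-only loci, in 2.67% and 1.51% of TKOL-only loci and in 6.66% and 4.49% of shared loci. At most 0.217% of their copies lay within 1000 bp of a site of any oligo that the study used for repeat families. The third WT-only word was a plain run of the AC dinucleotide, in 5.62% of WT-only, 0.363% of TKOL-only and 0.621% of shared loci.

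The leading TKOL-only words and the first shared words lay near sites of named elements. The first TKOL-only word was in 6.36% of TKOL-only loci, in no WT-only locus and in 5.78% of shared loci, and 59.0% of its 2431 genome copies lay within 1000 bp of a site of the study's IAP long terminal repeat (LTR) primers. The second carried 2 CpGs and was in 5.69% of TKOL-only, 0.991% of WT-only and 4.94% of shared loci. Of its 5709 copies, 91.8% lay within 1000 bp of a site of the primers for L1MdT, a young LINE-1 retrotransposon. The third, with 4 CpGs, was in 5.27% of TKOL-only, 0.110% of WT-only and 19.5% of shared loci, and 80.2% of its copies lay that close to the reverse primer for the gag gene of IAPEz, the IAP family with intact genes. The leading shared word belonged to the same region: it was in 20.5% of shared, 4.72% of TKOL-only and no WT-only loci, and 87.2% of its 1266 copies lay within 1000 bp of the gag reverse primer. The second shared word, in 15.5% of shared, 1.76% of TKOL-only and 0.441% of WT-only loci, had 59.3% of its copies that close to an IAP LTR primer site. The third shared word was of another kind: it was in 6.80% of shared but 12.9% of WT-only and 2.91% of TKOL-only loci, and at most 0.186% of its 10740 copies lay within 1000 bp of a site of any of these oligos.

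The study's own oligos were also matched, which needs no choice of words. They are shown because each marks a place in an element, written 5′ to 3′ as ordered.
IAPEz gag forward: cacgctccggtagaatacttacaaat
IAPEz gag reverse: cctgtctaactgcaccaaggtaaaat
IAP probe: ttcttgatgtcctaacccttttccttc

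An exact match to the gag reverse primer was inside 721 of 3545 shared loci (20.3%), 87 of 1651 TKOL-only loci (5.27%) and 0 of 908 WT-only loci. Among loci of 1 list only it was inside 92 of 47164 (0.195%). The forward primer matched 610 shared, 30 TKOL-only and 0 WT-only loci. The IAP LTR primers, matched after C-to-T conversion, gave 289 shared loci (8.15%), 17 TKOL-only (1.03%) and 2 WT-only (0.220%), whereas the word near them was in 6.36% of TKOL-only and 5.78% of shared loci. The primers for the IAPEz hairpin bisulfite amplicon, matched in the same way, gave 651, 55 and 0. The L1MdT amplicon primers matched 81 TKOL-only loci (4.91%), 63 shared (1.78%) and 4 WT-only (0.441%). The IAP probe, an RNA FISH oligo that the study describes as directed at IAPEz gag, went the other way. It was in 32 WT-only loci (3.52%), 5 shared (0.141%) and 1 TKOL-only (0.0606%). However, 0% of the copies of the third TKOL-only and first shared words, which lay near the gag reverse primer, were within 1000 bp of an exact probe site. Exact probe sites in mm9 therefore lay more than 1000 bp from these gag words. Longer distances, and those from probe sites to gag primer sites, were not measured. Whether a probe site lies in the same element as a gag site is therefore not known.

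WT-only loci had the lowest and shared loci the highest CpG density when all peaks were used, and this order depended on which peaks and lists were taken. The median was 0.739 CpG per 100 bp in WT-only, 2.05 in TKOL-only and 3.37 in shared loci, against 0.889 in loci of 1 list. In windows of 300 bp around the middle of each locus, which removes the difference in length, the medians were 0.667, 2.00 and 2.67. When the classes were redrawn from peaks of a −log10 q of 5 or more, however, TKOL-only loci had 4.06 and shared loci 2.16. Redrawn classes ignore weaker peaks, so a redrawn TKOL-only locus can hold a weaker WT peak. There were 316 such loci, whereas 16 loci of the full TKOL-only class reached that level in both lists. Among loci of single-copy sequence TKOL-only had 0.943, shared 0.500 and WT-only 0.458. Without TKOL replicate 1, WT-only (0.998) and TKOL-only loci (0.943) changed places. A WT-only locus was without any CpG in 21.1% of cases, a TKOL-only locus in 5.21% and a shared locus in 4.03%.

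Shared loci were the widest when all peaks were used, with a median of 521 bp (quartiles 371 and 777). TKOL-only loci had a median of 287 bp (220 and 404) and WT-only loci of 266 bp (229 and 336). Loci of 1 list had 190 bp. In classes redrawn from peaks of a −log10 q of 5 or more the order was another, with 650.5 bp in TKOL-only, 432.5 bp in shared and 373 bp in WT-only loci. A locus is the union of its lists' peaks, so its width grows with the number of lists. The peaks themselves were of similar width in all lists, with medians of 220 and 214 bp in WT and 207 and 194 bp in TKOL (16.5 bp apart in the mean, exact permutation test p = 0.333, Benjamini-Hochberg adjusted p = 0.727 over 24 tests). This difference turned to 35.8 bp the other way when only peaks with a −log10 q of 5 or more were kept.

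**Figure D2:**
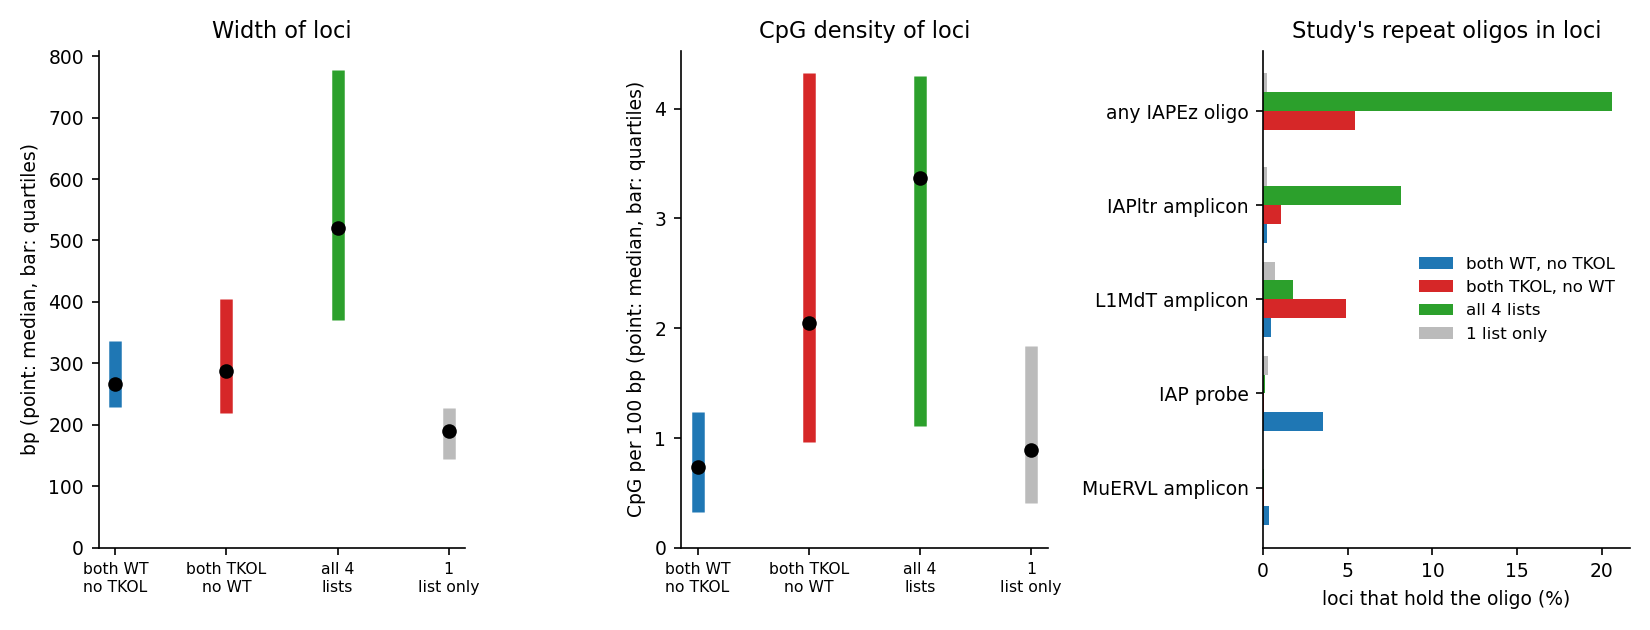
Width in bp and CpG per 100 bp of the loci (left and middle, points are medians and bars run between quartiles) and the percentage of loci holding each of the study's repeat oligos (right), by class and for loci of 1 list. The IAPEz gag primers and amplicon (plotted as any IAPEz oligo) mark shared loci (20.6%) and none of the WT-only loci, and the L1MdT amplicon marks TKOL-only loci most (4.91%). The IAP probe marks WT-only loci most (3.52%). It is also described as an IAPEz gag oligo, but its exact sites lay apart from the gag words.

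Most loci of every class lay in sequence that occurs many times. The median genome count of their 31-base words was 3304 in WT-only, 1235 in TKOL-only and 844 in shared loci, and it was at least 100 in 85.5%, 85.9% and 91.1% of them. Reads from such sequence can be placed on several copies, so a peak at one copy may hold reads of another. The words occurred once in the genome in 74 WT-only, 41 TKOL-only and 176 shared loci.

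Short motifs were looked for on both strands. The Zfp57 site TGCCGC was in 17.6% of shared, 7.75% of TKOL-only, 3.19% of WT-only loci and 2.87% of loci of 1 list. In windows of equal length (300 bp) the shares were 11.3%, 7.51%, 3.19% and 4.49%, and 5.27% over all loci. GCCATCTT, the core of the site of YY1, a zinc finger protein with a known site in LINE-1 elements, was searched after the L1MdT word was seen to begin with its reverse complement. It was in 297 of 1651 TKOL-only, 638 of 3545 shared and 57 of 908 WT-only loci and in 6.99% of all loci. In the equal windows it was in 17.4%, 11.8% and 6.28%, against 8.01% of all. That word was chosen for leading in TKOL-only loci (in 94 of them and in 9 WT-only loci), so part of this contrast was set by the choice. The methylation-sensitive cores of BANP (TCTCGCGA) and NRF1 (GCGCATGC) were rare, in 0, 1 and 36 and in 2, 2 and 3 of the WT-only, TKOL-only and shared loci, and in 0.151% and 0.271% of all loci. In the equal windows TCTCGCGA was in 2 shared loci (0.0564%), against 0.0835% of all.

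H3K9me3 was then read in lists that played no part in defining the classes. Shared loci carried it most often, with a peak at 2729 and 2686 of 3545 loci (mean 76.4%) in the 2 WT H3K9me3 lists and at 88.0% and 79.3% in the 2 TKOL lists. TKOL-only loci followed, at 48.5% and 47.4% in WT and 67.7% and 46.5% in TKOL. WT-only loci were lowest, at 29.1% and 26.7% in WT and 35.9% and 42.7% in TKOL. All loci together had 25.4% and 23.8%, and 35.5% and 26.7%. Loci of 1 list had 13.7% to 24.2%. In each of the 4 lists the order was therefore shared, TKOL-only, WT-only, although in TKOL replicate 2 the TKOL-only (46.5%) and WT-only loci (42.7%) were close. Any overlap of 1 bp counted, and shared loci were the widest (median 521 bp, against 287 bp in TKOL-only and 266 bp in WT-only loci). Width can raise the share in any list. Windows of equal length were not used for H3K9me3, nor for the DKO0 and Uhrf1 shares below.

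At WT-only loci H3K9me3 peaks were listed more often in TKOL, but less clearly so with lists of equal size. The WT mean was 27.9% ± 1.71 and the TKOL mean 39.3% ± 4.83 (SD, n = 2 lists each), a difference of -11.5 percentage points for WT minus TKOL (exact permutation test p = 0.333, adjusted p = 0.727), with lists that did not overlap. TKOL-only loci had 47.9% ± 0.728 in WT and 57.1% ± 15.0 in TKOL, and the lists overlapped (difference -9.18, exact permutation test p = 1). Shared loci had 76.4% ± 0.858 and 83.6% ± 6.14 without overlap (difference -7.26, exact permutation test p = 0.333, adjusted p = 0.727). The TKOL H3K9me3 lists were longer (55121 and 32702 peaks) than the WT ones (29438 and 25951), and all loci together were also higher in TKOL (31.1% ± 6.20 against 24.6% ± 1.14). The H3K9me3 list of TKOL replicate 1 weighed most: without it the differences were 1.42 at TKOL-only and -2.92 at shared loci, and without that of replicate 2 they were -19.8 and -11.6. With WT-only loci taken from 1 WT Trim28 list, the difference there was -4.88 (without WT replicate 1) or -6.44 (without WT replicate 2), and with TKOL-only loci taken without TKOL replicate 2 theirs was -5.45. With an equal number of H3K9me3 peaks in each list the difference at WT-only loci was -3.41 percentage points with lists that overlapped (exact permutation test p = 1), and that at TKOL-only loci was 0.151. The difference at WT-only loci minus that at shared loci was -4.19 percentage points, and that at TKOL-only minus shared loci -1.91 (exact permutation test p = 1 for each).

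Read from the Trim28 side, peaks in TKOL met H3K9me3 of their own line more often. Averaged over the 2 H3K9me3 lists of the same line, 33.0% and 28.2% of the peaks of the WT Trim28 lists and 43.3% and 46.9% of those of the TKOL lists overlapped an H3K9me3 peak. The lines did not overlap (30.6% ± 3.38 and 45.1% ± 2.52, exact permutation test p = 0.333, adjusted p = 0.727). The difference of -14.5 percentage points became -8.65 without the H3K9me3 list of TKOL replicate 1, -8.29 with H3K9me3 lists of equal size and -9.20 with Trim28 peaks of a −log10 q of 5 or more.

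The DKO0 Trim28 lists, of the same strain as TKOL but with Dnmt1 restored, held most shared loci and fewer of the line-specific ones. A DKO0 peak was at 88.2% and 86.7% of shared loci, at 43.5% and 38.8% of TKOL-only loci and at 27.4% and 21.0% of WT-only loci, against 18.2% and 16.4% of all loci and 6.83% and 5.55% of loci of 1 list. At least 1 DKO0 list held 896 TKOL-only loci (54.3%) and 346 WT-only loci (38.1%). Both DKO0 lists held 464 and 94. Of loci in 1 list only, 10.6% were in at least 1 DKO0 list. In classes redrawn from Trim28 peaks of a −log10 q of 5 or more the mean DKO0 shares were 99.7% (shared), 97.3% (TKOL-only) and 72.7% (WT-only). The redrawn TKOL-only loci can hold weaker WT peaks.

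Uhrf1, the protein that brings Dnmt1 to DNA, was measured by the study in lines with a FLAG tag on Uhrf1. It showed the same order. In WT its lists held 44.0% and 57.0% of shared, 22.7% and 35.6% of TKOL-only and 5.18% and 7.27% of WT-only loci. In TKOL they held 31.5% and 24.3%, 17.3% and 11.4%, and 4.63% and 3.74%.

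**Figure D3:**
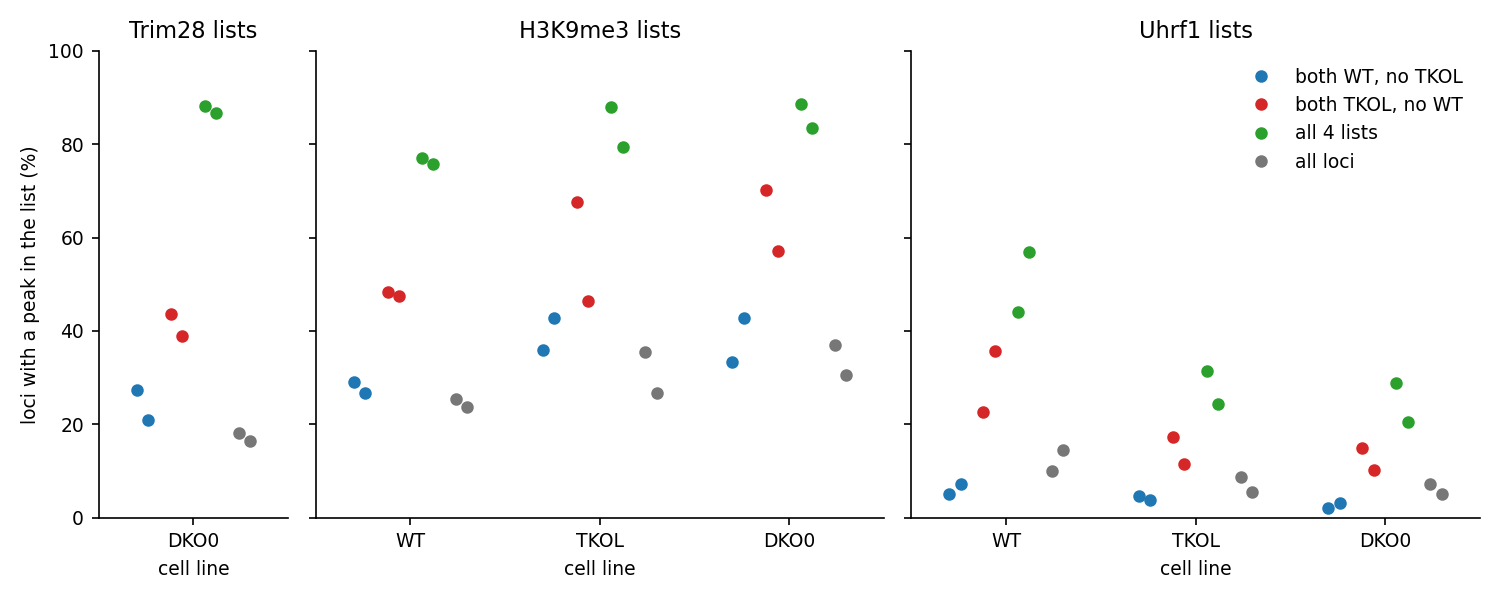
Percentage of loci with a peak (y axis) in each single-replicate list of Trim28 (DKO0), H3K9me3 and Uhrf1, by cell line (x axis), with 1 point for each of 2 lists. Shared loci are highest in every list and WT-only loci lie below all loci in every Uhrf1 list.

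The call of a WT-only locus often rested on a peak near the calling threshold. In the weaker of its 2 lists the median −log10 q of WT-only loci was 1.31, and 86.5% were under 2. For TKOL-only loci it was 1.76, with 65.6% under 2. The weakest members had 1.01 in each class. Just outside the classes, 1730 loci were in both WT lists and 1 TKOL list, with a median −log10 q of 2.73 in that list, and 2453 were in both TKOL lists and 1 WT list, with 2.06. The list that the authors called on the pooled TKOL reads held a peak at 412 of the 908 WT-only loci (45.4%), so 496 were absent from it. It held 58.0% of all loci.

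Few line-specific loci were strong in every list that held them. With a −log10 q of 5 or more in both lists there were 12 WT-only and 16 TKOL-only loci, and 290 shared loci passed in all 4. Of the 12, none was in the pooled TKOL list, 9 were in a DKO0 list and 5 were in both WT H3K9me3 lists. Of the 16, 14 were in a DKO0 list and 12 were in both WT H3K9me3 lists. When every Trim28 list was first cut at that level, the counts were 33 WT-only, 316 TKOL-only and 290 shared loci, and the H3K9me3 difference at the 33 turned to 10.6 percentage points higher in WT. Weaker peaks no longer counted after this cut, so a locus in a redrawn line-specific class can hold a weaker peak of the other line.

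The 8 loci with the highest fold enrichment in each class, ranked by the lowest value over the lists that hold them, were looked at one by one. Fold enrichment is the peak caller's ratio of signal to its local background. The windows below are 200 bases of the plus strand of mm9 in the middle of the stretch that the lists share, for the 2 loci ranked first in each line-specific class and for the shared locus at rank 2, as examples of the sequence under strong calls. They are too few to compare the classes. Capitals mark CpG.
WT-only, rank 1, chr12:58796722-58796921: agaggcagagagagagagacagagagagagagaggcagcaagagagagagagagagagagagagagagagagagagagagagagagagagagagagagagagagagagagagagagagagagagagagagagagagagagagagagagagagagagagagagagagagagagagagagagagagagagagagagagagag
WT-only, rank 2, chr12:111095066-111095265: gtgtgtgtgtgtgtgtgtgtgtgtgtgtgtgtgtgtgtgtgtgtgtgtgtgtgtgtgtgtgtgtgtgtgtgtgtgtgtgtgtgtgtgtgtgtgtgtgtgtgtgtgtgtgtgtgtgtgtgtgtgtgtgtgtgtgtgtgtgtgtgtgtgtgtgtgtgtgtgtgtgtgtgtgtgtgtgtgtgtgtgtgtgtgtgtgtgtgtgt
TKOL-only, rank 1, chr10:56770239-56770438: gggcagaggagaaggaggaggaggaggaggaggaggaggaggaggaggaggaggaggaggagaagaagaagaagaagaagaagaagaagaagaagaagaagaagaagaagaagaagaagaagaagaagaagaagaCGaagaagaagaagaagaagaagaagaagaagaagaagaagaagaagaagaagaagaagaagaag
TKOL-only, rank 2, chr4:38933065-38933264: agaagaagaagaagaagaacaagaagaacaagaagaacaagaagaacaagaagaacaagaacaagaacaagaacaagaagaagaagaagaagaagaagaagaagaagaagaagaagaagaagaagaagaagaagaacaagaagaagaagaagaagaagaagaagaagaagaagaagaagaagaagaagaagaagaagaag
Shared, rank 2, chr6:103599100-103599299: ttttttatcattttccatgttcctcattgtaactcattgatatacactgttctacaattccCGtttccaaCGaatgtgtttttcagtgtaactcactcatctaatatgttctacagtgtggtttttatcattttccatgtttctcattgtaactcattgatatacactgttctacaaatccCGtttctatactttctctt

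The strongest WT-only locus, chr12:58796632-58797073, lay in an intron and was a run of GA dinucleotides. Its fold enrichment was 9.07 in WT replicate 1 and 10.55 in WT replicate 2. DKO0 replicate 1 had 12.1 there and DKO0 replicate 2 had no peak, and no H3K9me3 list of WT, TKOL or DKO0 had one. The second, chr12:111095024-111095319, was intergenic and a run of GT dinucleotides, with 8.44 and 10.49 in WT and 5.17 and 5.33 in DKO0. Ranks 4 and 5, chr3:19766624-19767103 near 4632415L05Rik and chr13:99265631-99265978 near Gm10320, were made of words as frequent as those of rank 2. They had 7.92 and 10.8, and 7.91 and 12.3, in the WT lists. Each had H3K9me3 in 1 list of WT and 1 of TKOL and in none of DKO0. Of these 4 loci each had a Trim28 peak in at least 1 DKO0 list.

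The locus at rank 3 differed from them. It lay between genes at chr4:129634821-129635191, 10214 bp from the start of Spocd1, a gene known for silencing retrotransposons by DNA methylation in the male germline. Trim28 fold enrichment was 14.0 and 8.03 in the WT lists, and H3K9me3 had 7.92 and 10.6 in the WT lists. Neither mark had a peak in any TKOL or DKO0 list. No other WT-only locus of the 8 had H3K9me3 in both WT lists and in no TKOL list.

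The strongest TKOL-only loci were also simple repeats. Rank 1, chr10:56770209-56770516, had 7.34 and 7.73 in the TKOL lists and no DKO0 or H3K9me3 peak. Rank 2, chr4:38932954-38933280, had 7.33 and 8.07, and its only other peak was one of 4.72 in WT H3K9me3 replicate 2. Both were intergenic, and the windows above were mainly runs of AAG.

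Ranks 3 to 5 were CpG-rich, and DKO0 had a peak at each. The locus at chr12:39475648-39476212, 30038 bp from Etv1, an ETS family transcription factor, held 30 CpGs in 565 bp and had 5.95 and 5.85 in TKOL and 4.32 and 3.33 in DKO0. The locus in an intron at chr14:65555873-65556486, 12505 bp from the start of Hmbox1, a homeobox gene of telomere maintenance, held 21 CpGs and had 5.52 and 7.46 in TKOL and 6.03 and 7.04 in DKO0. The locus at chr2:98213023-98213682 had 5.47 and 9.51, with 8.49 and 7.08 in DKO0 and H3K9me3 in all 4 lists of WT and TKOL (3.40 to 4.61). At rank 6, 32664 bp from Pcdh20, a protocadherin, the values were 6.10 and 5.41 in TKOL and 4.92 and 3.62 in DKO0, and H3K9me3 was again in all 4 lists.

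The 8 strongest shared loci had fold enrichments of 14.6 to 21.4 in the 4 Trim28 lists and, with 9.62 to 19.6, were nearly as high in the H3K9me3 lists of the same lines. Of these, rank 1 (chr11:121843507-121843856) and rank 4 (chrX:166649820-166650296) ended at the last base of their chromosome in mm9. Whether input was used for these lists is not stated. Signal of the assembly itself can therefore not be told apart from binding, there or at other shared loci. Rank 2, in an intron at chr6:103598966-103599436, had 18.2, 17.96, 17.3 and 20.5 in WT replicates 1 and 2 and TKOL replicates 1 and 2, and 16.6, 16.6, 14.7 and 18.1 in the matching H3K9me3 lists. The intronic locus at chrX:34670383-34670776, 3789 bp from the start of Nkap, had 16.6, 15.9, 15.3 and 19.6 in the Trim28 lists and 17.2, 16.6, 15.9 and 18.3 in the H3K9me3 lists. Each of the 8 had a peak in all 6 Trim28 and all 6 H3K9me3 lists.

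**Figure D4:**
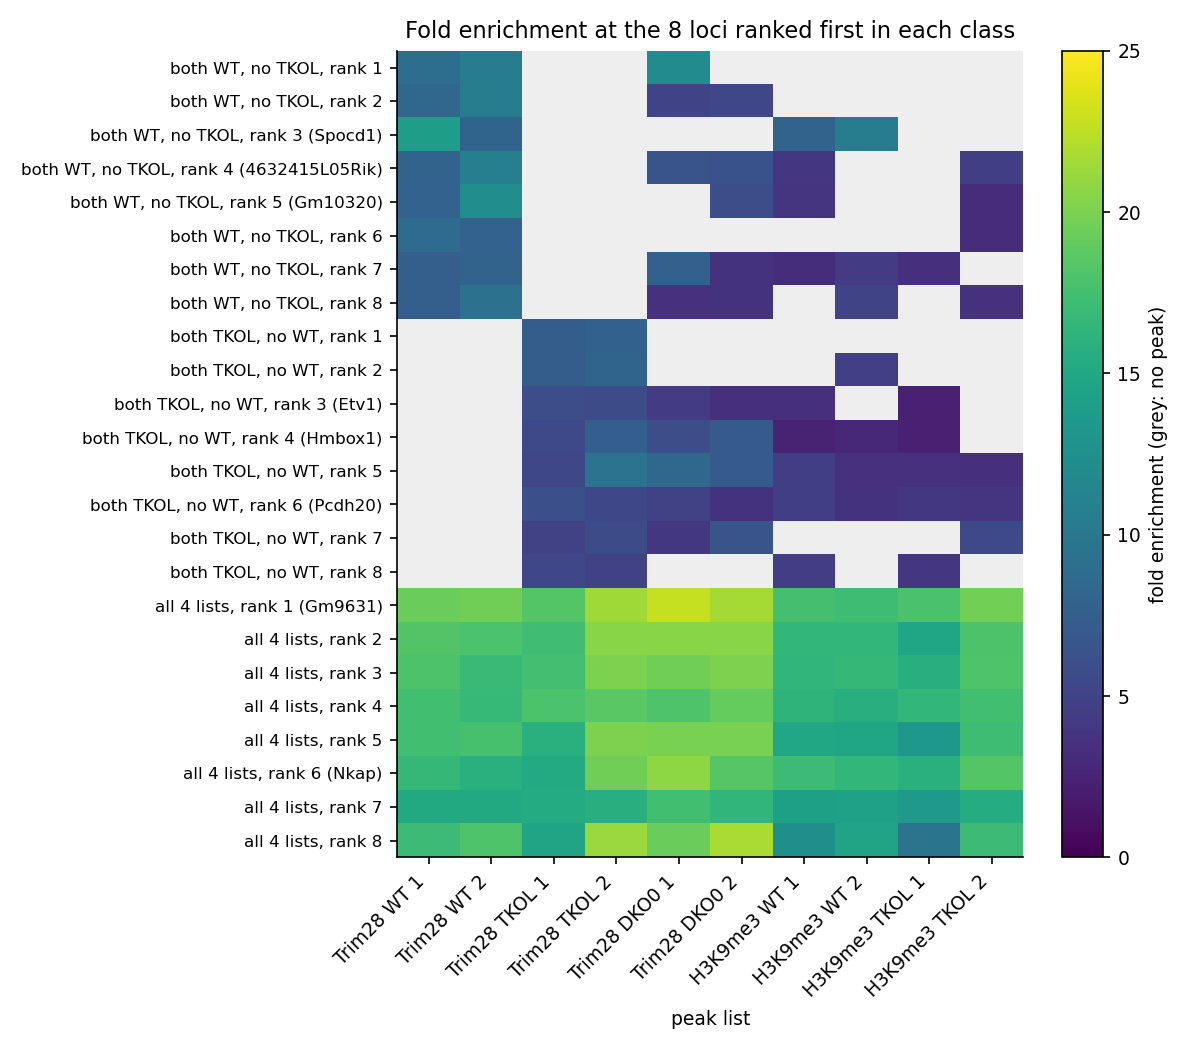
Fold enrichment (colour, grey where the list has no peak) at the 8 loci ranked first in each class (rows) in the single-replicate Trim28 and H3K9me3 lists (columns). Shared loci were between 9.62 and 22.8 in every list shown (H3K9me3 of DKO0 is not shown). Most line-specific rows had a DKO0 Trim28 peak, whereas the locus near Spocd1 had peaks in the WT lists alone.

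Loci of sequence found once in mm9, where a read has 1 place to go in that assembly, were few. In them the 2 line-specific classes did not keep the order given above throughout. A count of 1 in mm9 need not be the count in the cells. The shared one at chr5:152537010-152537259, for example, ended at the last base of its chromosome in mm9. H3K9me3 was at 95.5% and 92.0% (WT) and 86.9% and 89.8% (TKOL) of the 176 shared ones. It was at 46.3% and 36.6%, and 48.8% and 17.1%, of the 41 TKOL-only ones, and at 10.8% and 20.3%, and 10.8% and 18.9%, of the 74 WT-only ones. WT-only loci were thus above TKOL-only ones in TKOL replicate 2 alone. DKO0 Trim28 peaks were at 92.0% and 88.6% of the shared, 9.76% of the TKOL-only in each list, and 20.3% and 12.2% of the WT-only loci, so there the TKOL-only loci were lowest. The strongest of the 74 with a gene within 50000 bp lay at chr7:97264567-97265008, 13936 bp from Picalm, a clathrin assembly gene, with 7.97 and 5.23 in WT and no peak in any DKO0, TKOL or H3K9me3 list of WT and TKOL. The strongest of the 41, at chr3:141854606-141854850 and 22338 bp from Bmpr1b, a BMP receptor, had 9.96 and 4.62 in TKOL, none in DKO0, and H3K9me3 of 6.85, 7.53, 7.98 and 5.92 in the 4 lists of WT and TKOL. These single-copy examples were chosen after the values were seen.

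Few Trim28 loci lay at promoters when all peaks were used. A locus touched the 2000 bp on either side of a protein-coding start in 15 of 908 WT-only (1.65%), 15 of 1651 TKOL-only (0.909%) and 62 of 3545 shared cases (1.75%), against 4.00% of all loci. In classes redrawn from peaks of a −log10 q of 5 or more it was 9.66% of shared loci, 0.633% of TKOL-only and 0% of WT-only ones. Without WT replicate 1 it was 4.30% of WT-only, and without TKOL replicate 2 it was 5.65% of TKOL-only loci. Among shared loci of 2 to 99 genome copies it was 19.6% (27 loci). Most of these 27, which also count among the 62, lay in 1 cluster of genes with Gm names at chr9:3000091-3038266 (Gm10722 to Gm10715). Trim28 fold enrichment in that cluster was only 1.38 to 3.23 in the 4 lists. Intergenic loci were 70.3%, 74.8% and 74.9%, and introns held 28.0%, 24.5% and 23.5%. The median distance to the nearest protein-coding start was 91469, 96201 and 101121 bp. Per 10 Mb, shared loci were densest on chromosomes 13 (21.9), 10 (21.6), 12 (20.1) and 14 (19.4), where TKOL-only loci also reached 9.57 to 11.4, and the other autosomes had 8.31 to 14.4 shared loci. A shared locus lay within 5000 bp of 14.8% of TKOL-only, 7.16% of WT-only and 5.35% of single-list loci.

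Of the gene lists examined, the zinc finger and olfactory receptor genes alone had loci at promoters. Of 43 imprinted, 34 germline, 17 2-cell embryo, 20 pluripotency and 32 heterochromatin machinery genes found in the annotation, 0 had a locus of any class within 2000 bp of the start. Over all 37273 annotated genes, 35 had a WT-only (0.0939%), 36 a TKOL-only (0.0966%) and 107 a shared locus (0.287%) there, so lists of this size would hold few at the same rate. Of 343 genes named Zfp followed by digits alone, which encode zinc fingers, Zfp781 and Zfp386 had a TKOL-only locus and 0 had a WT-only one. Zfp804b, outside this list because its name ends in a letter, had a WT-only locus (3.34 and 2.79 in the WT lists). At Zfp781 (chr10:81373927-81374293, 367 bp) Trim28 fold enrichment was 3.65 and 4.73 in TKOL and 4.34 and 3.39 in DKO0, and H3K9me3 was in all 4 lists (3.29 to 4.88). At Zfp386 (chr12:117281298-117281404, 107 bp) it was 3.16 and 4.21 in TKOL and 3.90 and 5.07 in DKO0, with H3K9me3 in TKOL replicate 2 alone (4.60). Of 1249 olfactory receptor genes, 6 had a shared locus, among them Olfr270 with 4.61, 2.97, 3.84 and 3.72 in the 4 lists.

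Across whole genes, from 2000 bp before the start to the end, 280 (0.751%), 396 (1.06%) and 720 (1.93%) of all genes held a WT-only, TKOL-only and shared locus. Sfmbt2, an imprinted gene that encodes a Polycomb protein, held both a WT-only and a TKOL-only locus, and was the 1 of 43 imprinted genes with any. Shared loci were in 4 of 34 germline genes (11.8%): Sycp1, of the synaptonemal complex, Asz1 and Mov10l1, which act in the piRNA pathway, and Zcwpw1, a meiotic histone reader. Of the 343 genes named Zfp followed by digits alone, 1 held a WT-only, 5 a TKOL-only and 5 a shared locus (0.292%, 1.46% and 1.46%). Zfp53 was the WT-only one, and Zfp277, Zfp69 and Zfp706 joined Zfp781 and Zfp386 among the TKOL-only ones.

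Promoters with a shared locus in unique sequence included Phf21a, which encodes a reader of histone H3 without methylation at lysine 4 (11.4 to 14.7 in the 4 lists), Rps29, a ribosomal protein (9.63 to 13.3), Oasl1, an interferon response gene (6.11 to 10.99), and Parp2, a DNA repair enzyme (8.02 to 10.2). H3K9me3 was in all 4 lists of WT and TKOL at each of these 4, with fold enrichments of 4.58 to 15.0. Unique here means found once in mm9. Whether input was used is not stated, so signal of the assembly cannot be told apart from binding at these promoters either. TKOL-only promoters in unique sequence included Nfat5, a transcription factor of the osmotic stress response, with 3.61 and 7.20, and BC030867 with 3.20 and 7.37. Neither had a DKO0 or H3K9me3 peak. WT-only ones included Snapc5, a subunit of the snRNA activating complex, with 3.98 and 3.51, and Comp, a cartilage matrix gene, with 3.25 and 3.33, also without DKO0 or H3K9me3. These promoters were chosen after the values were seen.

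The repeat families were last counted copy by copy, which does not depend on the classes. Each exact site of an oligo in mm9 was widened by 500 bp on either side, overlapping windows were merged, and a copy was counted where a list had a peak in its window. Of 1334 copies with the IAPEz gag reverse site, Trim28 was at 76.4% and 59.9% in the WT lists, 92.7% and 80.4% in the TKOL lists and 85.8% and 79.2% in the DKO0 lists. The WT lists were below both TKOL lists (68.1% ± 11.7 and 86.5% ± 8.69, SD, n = 2, exact permutation test p = 0.333, adjusted p = 0.727). The difference was -18.4 percentage points, -10.1 without WT replicate 2, -12.2 without TKOL replicate 1 and -34.6 with peaks of a −log10 q of 5 or more. Fewer peaks of the WT lists (2043 and 776) than of the TKOL lists (3792 and 2574) reached that level. H3K9me3 at the same copies was 93.3% and 90.9% in WT and 97.5% and 81.4% in TKOL, and overlapped. The gag forward site (824 copies) had 92.6% and 79.1% in WT and 99.2% and 93.4% in TKOL.

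Windows around the IAP LTR amplicon (3940 copies) had a Trim28 peak in 35.2% and 21.3% of cases in WT and 50.9% and 35.7% in TKOL. The lines came close there, at WT replicate 1 (35.2%) and TKOL replicate 2 (35.7%). L1MdT copies (1969) separated 1 list from the rest, with 38.3% and 19.7% in WT, 77.8% and 29.4% in TKOL and 28.1% and 30.5% in DKO0. The line means differed by -24.5 percentage points for WT minus TKOL (exact permutation test p = 0.667, adjusted p = 1), and by -48.7 without TKOL replicate 2, -15.2 without WT replicate 2 and -0.330 without TKOL replicate 1. It was -14.3 with lists of equal size and -1.80 with peaks of a −log10 q of 5 or more. H3K9me3 at L1MdT copies was 64.0% and 61.9% in WT and 87.3% and 78.1% in TKOL, a difference of -19.7 percentage points that became -6.32 with lists of equal size.

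The IAP probe, whose exact sites lay apart from the gag words, marked copies with a different pattern. Of its 1074 copies, Trim28 was at 18.99% and 18.8% in WT and 19.8% in TKOL replicate 1, but at 2.42% in TKOL replicate 2 and at 2.33% and 5.59% in DKO0. The mean difference of 7.77 percentage points between lines became 16.5 without TKOL replicate 1 and -0.931 without TKOL replicate 2. With a window of 2000 bp it was -4.61, the direction of the gag copies. H3K9me3 was higher in both TKOL lists, with 54.7% and 55.5% in WT and 89.4% and 86.6% in TKOL (55.1% ± 0.593 and 88.0% ± 1.98, SD, n = 2, exact permutation test p = 0.333, adjusted p = 0.727). Major satellite windows (19, mSat amplicon) had Trim28 at 78.9% and 68.4% in WT and 78.9% in each TKOL list. MuERVL, a retrovirus active in 2-cell embryos, had Trim28 at 13.6% and 5.77% of 728 copies in WT and 12.9% and 7.97% in TKOL.

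**Figure D5:**
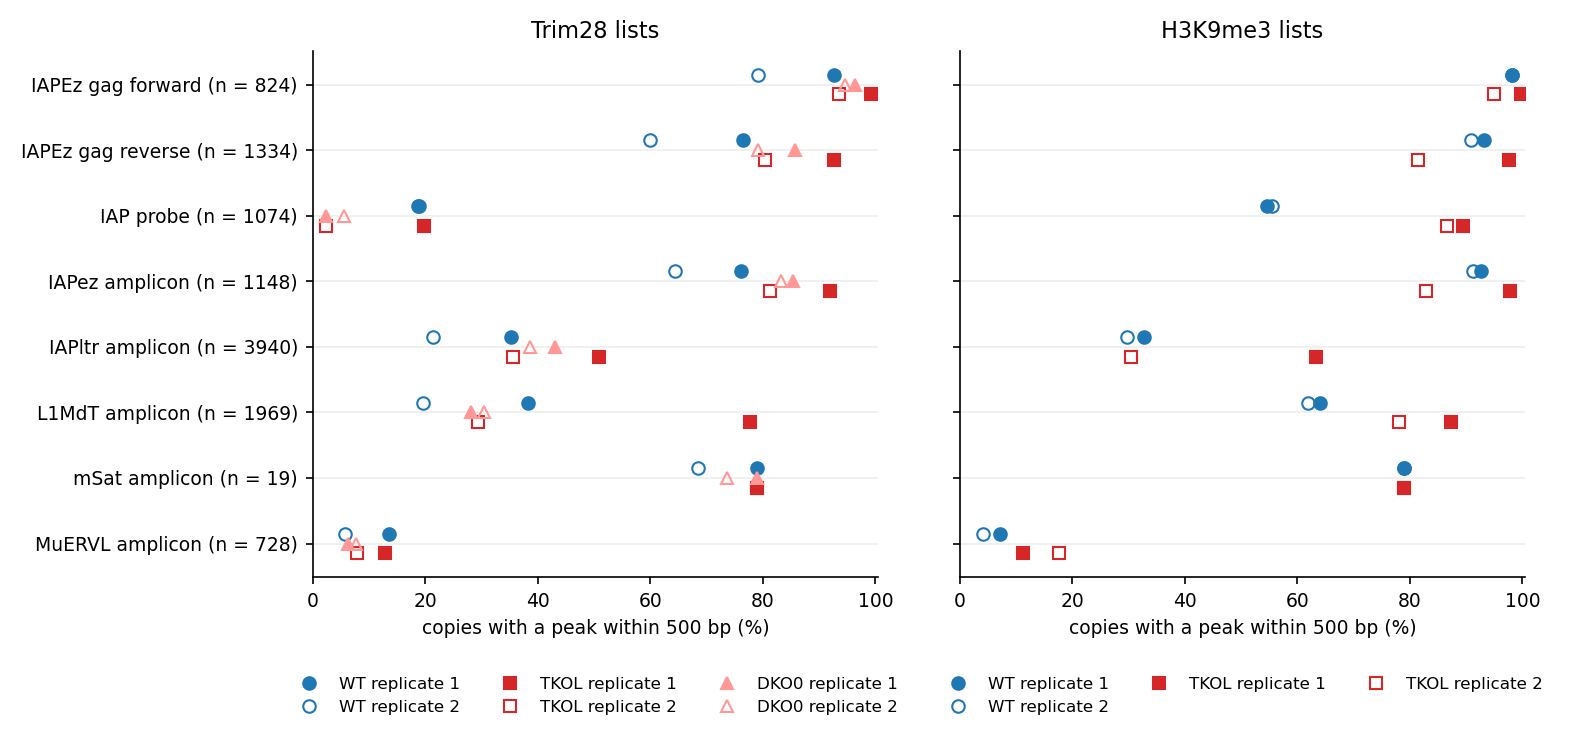
Percentage of genomic copies of each oligo site (rows, number of copies in brackets) with a Trim28 peak (left) or an H3K9me3 peak (right) within 500 bp, with 1 point for each list. At the gag primer and IAPez amplicon sites both WT Trim28 lists lie below both TKOL lists, L1MdT copies set TKOL replicate 1 (77.8%) apart, and the IAP probe has more H3K9me3 in both TKOL lists (89.4% and 86.6%) than in WT.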

How the data were processed

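Trim28 and H3K9me3 were measured by ChIP-seq and Uhrf1 by ChIPmentation. According to the labels and the study's methods, the authors used BWA to align reads to mm9 and GATK to drop duplicates, and MACS2 then gave 1 list of broad peaks per replicate. The deposited lists give each peak's fold enrichment (a ratio) and its −log10 p-value and q-value. Names in the pooled TKOL list join a further library name and those in single-replicate lists do not, so whether input was used for the latter is not stated. The pooled list combines the reads of both replicates.

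From these lists, overlaps were computed with Python 3.11.15, pandas 2.3.3, numpy 2.4.6 and pysam 0.24.0, and checked against bedtools 2.31.1 (8 lists, 0 differences) and on simulated data. Peaks outside chromosomes 1 to 19, X and Y were left out. Genes came from GENCODE vM1 on NCBIM37, which is mm9, and oligo sequences from the study's supplement. An overlap of 1 bp counted. Exact two-sided permutation tests compared 2 with 2 lists, adjusted over 24 tests. Loci named were the 8 with the highest lowest fold enrichment in each class, with the nearest protein-coding start within 50000 bp, and listed genes with a line-specific locus within 2000 bp of the start. The members, classes and gene lists were chosen with earlier results of these data known. Leading words, the YY1 motif and the counts by element copy were added after the data were seen. Pooled lists other than that of Trim28 in TKOL were not used. Depth is unknown. The sequence of the shared locus at rank 1 is not reported here. Alternatives changed how peaks were joined, their minimum q-value, the list sizes, the promoter width, the element window and the lists included, and used the replicate number as a block.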

Additional observations from a re-analysis of the deposited data

Results flagged for a closer look

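Peaks on the mitochondrial chromosome were left out of all comparisons, and 5 of 18 single-replicate lists held more than 3 of them. Trim28 TKOL replicate 1 held 10 and the other Trim28 lists none. H3K9me3 TKOL replicate 1 held 5, H3K9me3 DKO0 replicate 1 held 4, and the Uhrf1 lists of TKOL replicates 1 and 2 held 7 and 4. No WT list was above 3.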

How the results depend on the processing

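Joining peaks within 1000 bp gave promoter shares of 2.80% (WT-only) and 2.26% (TKOL-only), DKO0 shares of 36.7% (TKOL-only) and 86.2% (shared), 1.71 and 2.16 CpG per 100 bp and TGCCGC in 10.0% and 32.7%. Counting a list only from 50% of the locus gave 1348 shared loci, 3.12% of them at promoters, DKO0 shares of 30.7%, 47.7% and 92.4% in WT-only, TKOL-only and shared loci, and 2.35 (TKOL-only) and 3.74 (shared) CpG per 100 bp. A −log10 q of 5 or more gave 33, 316 and 290 loci, DKO0 shares of 72.7%, 97.3% and 99.7%, CpG of 0.10, 4.06 and 2.16, promoter shares of 0% (WT-only) and 9.66% (shared) and TGCCGC in 9.09% and 22.4% of these. It also reversed the H3K9me3 difference at WT-only loci (10.6), the median peak width (-35.75 bp) and the IAP probe difference (-0.14), which a 2000 bp window reversed too (-4.61). Equal list sizes gave DKO0 shares of 29.3%, 44.9% and 90.1% and CpG of 0.83 (WT-only) and 2.15 (TKOL-only). Absence also from the pooled TKOL list left 496 WT-only loci, with a DKO0 share of 17.4% and CpG of 0.55. Equal H3K9me3 lists reversed the difference at TKOL-only loci (0.15). Over the gene lists together, 2, 7 and 15 genes held a WT-only, TKOL-only and shared locus when the gene body was included, and 1 TKOL-only and 1 shared within 500 bp, against 0, 2 and 6 within 2000 bp. The causes were not tested.

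Without 1 Trim28 list, a line was represented by its other list, so that single-list loci entered the classes. WT-only loci then numbered 1676 to 13428, TKOL-only 1998 to 20435 and shared 3837 to 5631. Promoter shares were 1.49% to 4.30% (WT-only) and 0.83% to 5.65% (TKOL-only). DKO0 shares were 5.30% to 44.1%, 8.97% to 53.2% and 78.3% to 84.2%, CpG 0.67 to 1.00, 0.94 to 2.18 and 2.43 to 3.31, and TGCCGC 1.72% to 4.60%, 2.02% to 9.05% and 9.33% to 15.9%. The difference in peak number ranged from -10302.5 to 4648.5, positive without WT replicate 2 (1280.5) and without TKOL replicate 1. Without 1 Trim28 or H3K9me3 list, the H3K9me3 difference was -14.9 to -4.88 at WT-only, -19.8 to 1.42 at TKOL-only (positive without H3K9me3 TKOL replicate 1) and -11.6 to -2.92 at shared loci. At gag reverse copies the Trim28 difference was -26.6 to -10.1 and that of H3K9me3 -5.43 to 10.7, at IAP probe copies that of Trim28 was -0.93 to 16.5, and at L1MdT copies -48.7 to -0.33.

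The replicate number as a replicate block left the differences as they were (-11.5 at WT-only loci, exact sign-flip p = 0.5, the smallest that 2 pairs allow) and changed no call. The correlation of lists with the same number was 0.0028 for Trim28 fold enrichment over loci. Most loci were in 1 list only, so this value cannot show whether such lists shared a batch. TKOL replicate 1 was the longer list of its line for both Trim28 (31911 peaks) and H3K9me3 (55121 peaks), and a shared batch was not tested. Element copies and their alternatives were chosen after the data were seen. Without read counts, absence of a peak cannot be told from low depth.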
